A study of Mus musculus with 10 samples.

Results

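The distal convoluted tubule and its WNK kinase pathway were examined here through 10 genes in whole kidneys of mice given quinolinic acid or vehicle. The genes are Slc12a3, Pvalb, Trpm6, Trpv5, Calb1, Slc8a1, Wnk1, Wnk4, Stk39 and Klhl3. They were taken by name, each represented by its most abundant annotated transcript, out of 27876 genes matched to a symbol. All 10 were found, with 50 of the 85107 deposited transcripts between them, and each reached at least 1 CPM (read counts scaled to the library total).

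The distal convoluted tubule follows the thick ascending limb and reabsorbs sodium chloride through the thiazide-sensitive cotransporter NCC, the product of Slc12a3. WNK kinases phosphorylate and activate SPAK, the product of Stk39, and SPAK phosphorylates and activates NCC. KLHL3 joins WNK kinases to a CUL3 ubiquitin ligase that marks them for degradation, and defects in this route cause familial hyperkalaemic hypertension. The same segment takes up magnesium through TRPM6. Its late part and the connecting tubule move calcium in through TRPV5, carry it bound to calbindin and pass it out through the sodium-calcium exchanger NCX1, the product of Slc8a1. Much of this pathway is set by phosphorylation and protein turnover, which RNA levels do not show.

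The study gave wild-type mice quinolinic acid, a tryptophan breakdown product made in the kynurenine pathway, at 0.5 g/L in the drinking water, and gave a second group vehicle. Kidneys were collected on day 14 from 5 mice per group, described by the submitters as representative of their groups, and all 10 libraries carry 1 batch label. Strain, sex, age and any induced kidney injury are not given in the sources used here. The comparison asks whether quinolinic acid exposure was accompanied by different RNA levels in the kidney.

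The values are a finished comparison, the authors' edgeR likelihood-ratio test for each transcript. Values of single libraries were not analysed here. Library depth is therefore unknown, and the spread between mice cannot be shown. Errors are approximate 95% intervals, worked out from the fold change and its likelihood ratio. The header names the contrast as vehicle versus quinolinic acid without saying which group is the numerator. A positive or negative sign is therefore given as deposited and is not tied to either group. In whole kidney, fewer cells of a type and less RNA per cell cannot be told apart.

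None of the 10 genes was called as different between the groups in the authors' edgeR test. By the authors' deposited table, 0 of 10 had an adjusted p under 0.05, against 0.0152% of all genes of at least 1 CPM. At an unadjusted p under 0.05 the count was also 0 of 10, against 4.09% of those genes. The smallest adjusted p in the list was 0.794 and the largest 0.997 in the authors' deposited table. The sign was positive for 6 genes and negative for 4, with a median log2 fold change of 0.06, beside 0.08 over all genes of at least 1 CPM, of which 71.8% were positive. All 10 approximate intervals included 0, and their widths, described for each gene below, set how large a difference these data leave possible.

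**Figure D1:**
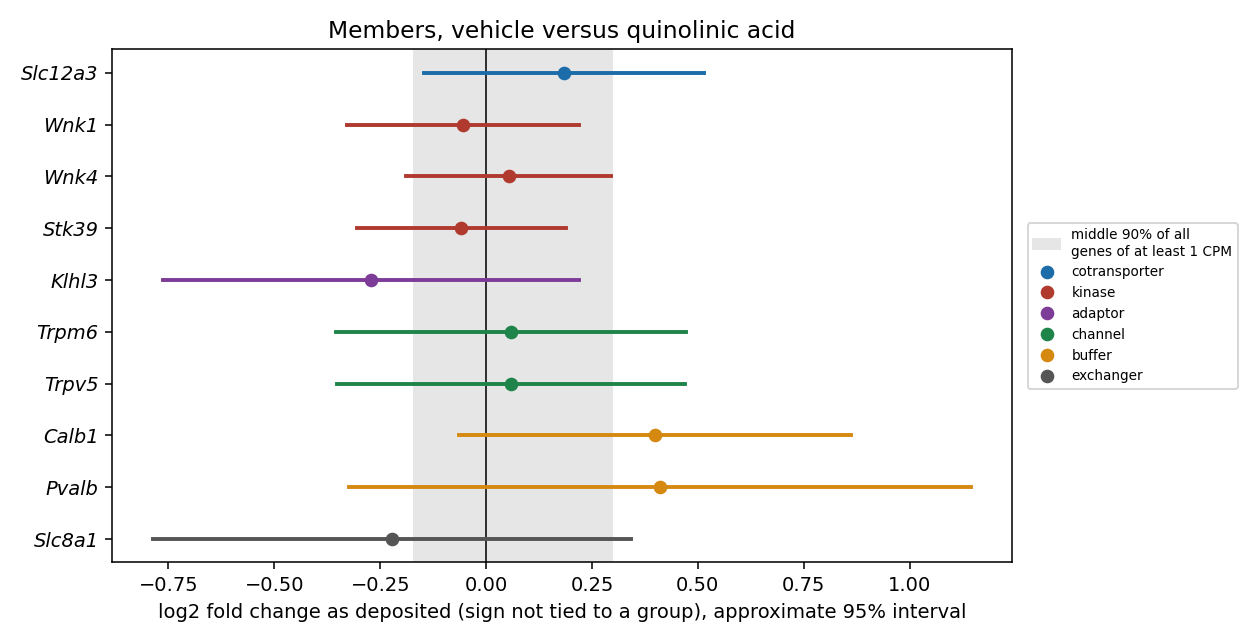
Log2 fold change (x axis, sign as deposited) of the most abundant transcript of each of the 10 genes (y axis), with points coloured by role, lines for approximate 95% intervals, and a grey band for the middle 90% of all genes of at least 1 CPM (-0.17 to 0.30). Every interval crosses 0, and the widest belongs to Pvalb. Calb1 (0.40), Pvalb (0.41), Klhl3 (-0.27) and Slc8a1 (-0.22) lie outside the band, which by its making holds only 90% of those genes. These also have the widest intervals of the 10. Their approximate standard errors run from 0.24 to 0.37, beside a median of 0.14 over all genes of at least 1 CPM.

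The tubule segment was well represented in the RNA. Levels can be compared between genes only per length, so the mean CPM was divided by transcript length in kilobases (kb). Such division takes reads to be spread evenly along a transcript. For Wnk1 they were not, as its last 2 exons held 42.0 CPM per kb against 14.2 for its full-length model. The order of genes below is therefore approximate. Slc12a3, which defines the segment, stood highest among the 10 at 56.8 CPM per kb, and Calb1 followed at 37.6. The kinases Wnk1 and Wnk4 came next at 14.2 and 11.9 CPM per kb. Pvalb stood at 6.35, Stk39 at 4.74, Trpv5 at 2.90, Slc8a1 at 2.03 and Trpm6 at 1.29. Klhl3, which encodes the ligase adaptor, was lowest at 0.563 CPM per kb. These are means over all 10 libraries, and without values per library it is not known which neighbours in this order differ beyond their spread.

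**Figure D2:**
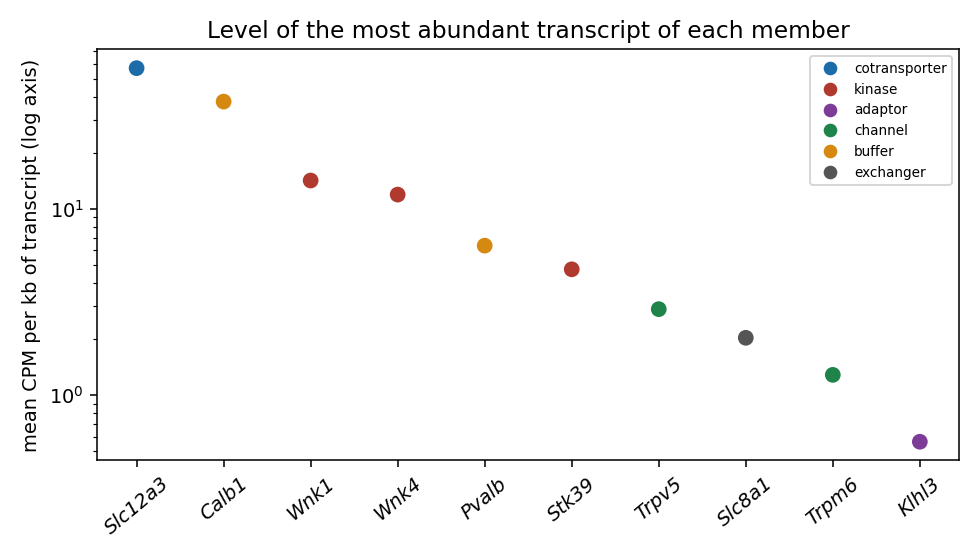
Mean level of the most abundant transcript of each of the 10 genes, in CPM per kb of transcript on a log axis, with colours for roles. Levels run from 56.8 for Slc12a3 to 0.563 for Klhl3.

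The annotated transcript affects these levels. Lengths and coordinates are from the GENCODE vM21 annotation, while the authors counted on lower versions of most of these transcripts, so their models can differ. The vM21 model of Slc8a1 (chr17:81388691-81649607 in mm10) has 2910 coding nucleotides and only 3 others. That of Klhl3 (chr13:58000228-58113592) has 1761 coding nucleotides of 7149. Of the 9 genes fixed as markers of the distal convoluted tubule, all 9 were measured at 1 CPM or more. Beyond the 10 genes they include Egf, the gene of the magnesium-regulating epidermal growth factor. At 414 CPM in the authors' deposited table, not divided by length, Egf was the highest of the 9, and the lowest was Klhl3 at 4.02. The 9 markers had a median log2 fold change of 0.06, and 6 of them were positive. Slc12a3, Pvalb, Trpm6, Klhl3 and Wnk4 are in both lists, so this is not separate from the values of the 10 genes.

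The cotransporter gene Slc12a3 (ENSMUST00000034218, 25 exons, chr8:94329201-94366214 in mm10) had 1 transcript in the table. Its level of 187.5 CPM, here not divided by length, placed it above 99.0% of all 27876 genes, of which 13115 reached 1 CPM. The authors' deposited table gave it a log2 fold change of 0.18 (p = 0.277, adjusted p 0.801). The approximate interval ran from -0.15 to 0.51, that is from 0.903-fold to 1.43-fold. To be called in this test at its error, Slc12a3 would have needed a difference of about 1.72-fold.

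The kinase genes had the narrowest intervals of the 10. Wnk4, the WNK kinase most restricted to the distal nephron (chr11:101260598-101277409), stood in the authors' deposited table at a log2 fold change of 0.05 and a mean of 49.1 CPM (p = 0.668). Its interval ran from -0.19 to 0.29. Stk39, which encodes SPAK (chr2:68210445-68472268), stood there at -0.06 and 16.7 CPM (p = 0.645 in the authors' deposited table), with an interval from -0.31 to 0.19. Wnk1 (chr6:119923969-120038672) stood at -0.05 and 150.0 CPM (p = 0.699 in the authors' deposited table), with an interval from -0.33 to 0.22. For Wnk1, Wnk4 and Stk39 the interval ends correspond to between 0.797-fold and 1.23-fold. A difference of about 1.49-fold for Wnk4 and 1.57-fold for Wnk1 would have been needed for a call.

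Klhl3 had the lowest log2 fold change of the 10, which the authors' deposited table gives as -0.27 at 4.02 CPM (p = 0.276, adjusted p 0.801). Its interval was wide, from -0.76 to 0.22. The other Klhl3 transcript, annotated without a coding sequence, is listed in the authors' deposited table at -0.34 and 2.34 CPM. The transcripts overlap and share reads, so they are not separate measurements.

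The entry channels of divalent cations had values near 0, with wider intervals than the kinases. Trpm6, the magnesium channel (chr19:18749983-18892511), stood in the authors' deposited table at a log2 fold change of 0.06 and 8.37 CPM (p = 0.780), with an interval from -0.35 to 0.47. Trpv5, the calcium channel (chr6:41652173-41680769), stood there at 0.06 and 9.39 CPM (p = 0.776 in the authors' deposited table), with an interval from -0.35 to 0.47. Each interval reaches down to 0.78-fold and up to 1.39-fold.

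The genes of the calcium-binding proteins had the largest values of the list. Calb1, the gene of calbindin-D28k (chr4:15881264-15908064), is listed in the authors' deposited table at a log2 fold change of 0.40 and 158.7 CPM (p = 0.0905, adjusted p 0.794). This was the smallest unadjusted p of the 10, and the interval ran from -0.06 to 0.86. The 3 annotated Calb1 transcripts gave log2 fold changes of 0.40, 0.38 and 0.40 in the authors' deposited table, including the pair of intron-retaining ones that lie toward the 5′ end. These transcripts overlap, so they are not separate measurements. Pvalb, the gene of parvalbumin, a buffer of the early segment (chr15:78191114-78204237), is listed in the authors' deposited table at 0.41 and 6.20 CPM (p = 0.273). Its interval, -0.32 to 1.14, was the widest of the 10, and a 3.34-fold difference would have been needed for a call. Slc8a1, the exit step, is listed in the authors' deposited table at -0.22 and 5.92 CPM (p = 0.439), with an interval from -0.79 to 0.34.

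Parvalbumin and calbindin-D28k are also made in neurons, and parvalbumin in fast muscle. All 7 neuronal marker genes were positive (median log2 fold change 0.61), and none reached 1 CPM (0.0451 to 0.531 CPM). By the authors' deposited table, 3 of the 7 had an unadjusted p under 0.05, against 5.12% of all genes, and none was called. These were Tubb3, a neuronal tubulin (log2 fold change 1.68, p = 0.0253 in the authors' deposited table), Snap25, a synaptic fusion protein (2.29, p = 0.0272), and Stmn2, a neuronal stathmin (0.53, p = 0.0278). Of 8 skeletal muscle genes 7 were measured, from 0.0201 to 0.395 CPM, with 4 positive and 2 negative, and Tnnt3, fast troponin T, came lowest in p (1.25, p = 0.108 in the authors' deposited table). The part of such cells in the Pvalb and Calb1 values was not tested.

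Wnk1 had 23 transcripts in the table, the most of the 10 genes, and they did not share 1 value. The gene makes a full-length kinase and, in the distal convoluted tubule, a shorter form known as kidney-specific WNK1, which starts from its own exon within intron 4 and lacks most of the kinase domain. The annotated transcript Wnk1-201 has this layout. Its 331-base opening exon lies at chr6:119981118-119981448 (mm10, minus strand), between exon 4 (chr6:119990092-119990249) and exon 5 (chr6:119972768-119972856) of the full-length model Wnk1-202. Another form, Wnk1-217, joins exon 3 (chr6:119992340-119992560 in the full-length model) directly to exon 5. The junctions are shown because they are what tells these forms apart. Each is read 5′ to 3′ from the GENCODE vM21 transcript, with 20 bases before the junction in lower case and the first 20 bases of the shared exon 5 in capitals.
Wnk1-202, full length, exon 4 to exon 5: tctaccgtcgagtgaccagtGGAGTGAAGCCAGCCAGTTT
Wnk1-201, own opening exon to exon 5: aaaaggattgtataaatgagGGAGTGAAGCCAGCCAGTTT
Wnk1-217, exon 3 to exon 5: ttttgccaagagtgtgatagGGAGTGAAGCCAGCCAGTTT

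The capitals are identical in the 3 sequences, so a read that does not cross the junction or fall in an upstream exon cannot be assigned to a form. The authors' deposited table lists Wnk1-201 at 1.22 CPM with a log2 fold change of -0.82 (p = 0.0850), and its interval ran from -1.76 to 0.11. The authors' deposited table lists Wnk1-217 at 1.16 CPM with -0.90 (p = 0.0442), and its interval ran from -1.78 to -0.02. Their adjusted p was 0.794 in the authors' deposited table, so neither passed the test. Both also count reads of exons 5 and 6, and no Wnk1 transcript in the table isolates exons 1 to 4 or the opening exon of Wnk1-201. The values therefore do not separate the full-length from the kidney-specific form.

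Among the 18 partial Wnk1 transcripts that share exons with the full-length model, the fold change was lower in those that end early in the gene than in those that end late. The 7 transcripts that end by exon 12 of the full-length model had log2 fold changes from -0.90 to -0.63 in the authors' deposited table, with a median of -0.79. The 10 that end at exon 14 or later, apart from the terminal one, ranged from -0.61 to -0.30, with a median of -0.44, in the authors' deposited table. Wnk1-208, made of the last 2 exons, stood at 0.11 (interval -0.13 to 0.35) in the authors' deposited table. The 4 full-length models all stood at -0.05 in the authors' deposited table. Several of the partial transcripts, among them Wnk1-206 and Wnk1-208, are annotated as retaining introns. The cut between exons 12 and 14 was not among the planned comparisons, and it falls between close values, -0.63 for Wnk1-210 and -0.61 for Wnk1-221. Transcripts overlap and share reads within and between the sets, so these counts are not of independent measurements.

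The level followed the same order. Per length, the 7 transcripts ending by exon 12 had 0.638 to 2.45 CPM per kb, the 10 ending at exon 14 or later 2.98 to 14.5, and Wnk1-208 42.0. Wnk1-208 thus held 82.1% of the CPM of the full-length model Wnk1-202 on 27.7% of its length. The exception was Wnk1-218, a single exon within intron 8, which the authors' deposited table lists at only 0.135 CPM with a log2 fold change of 0.30 (interval -0.38 to 0.97), above those of all other Wnk1 transcripts.

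**Figure D3:**
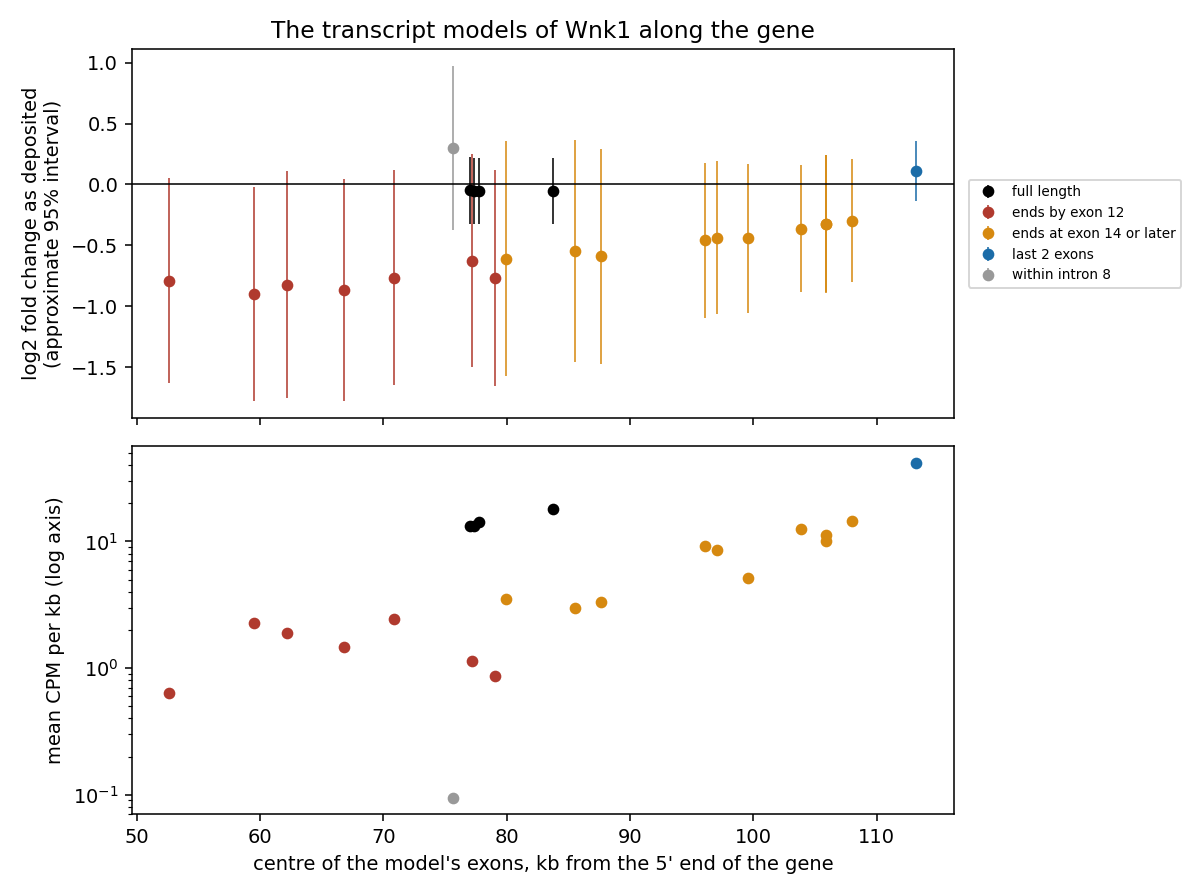
The 23 Wnk1 transcripts by the centre of their exons (x axis, kb from the 5′ end of the gene), with the log2 fold change and its approximate 95% interval above and the mean CPM per kb on a log axis below. Colours mark full-length models, models ending by exon 12, models ending at exon 14 or later, the model of the last 2 exons and the model within intron 8. Among partial models that share exons with the full-length model, the lowest value is -0.90, for Wnk1-217 centred at 59.5 kb. The highest is 0.11 at the 3′ end, where their level per length is also highest. Wnk1-218 stands at 0.30 in mid-gene with the lowest level.

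Wnk4 and Stk39 showed smaller differences of the same kind. Wnk4-205, the 462-nucleotide model at the 3′ end, is listed in the authors' deposited table at 17.3 CPM with a log2 fold change of 0.33 (p = 0.0159, adjusted p 0.775), and its interval ran from 0.06 to 0.60. Wnk4-204, which lies upstream, is listed in the authors' deposited table at 7.26 CPM with -0.17 (interval -0.54 to 0.19). For Stk39 the upstream model Stk39-208 stood at -0.22 and the 3′ model Stk39-204 at -0.01 in the authors' deposited table. Wnk1-217 and Wnk4-205 were the only transcripts of the 10 genes with an unadjusted p under 0.05, 2 of 50, against 6.08% of all deposited transcripts. On the opposite strand Gm11615 overlaps the Wnk4 model by 306 bases but not Wnk4-205, and at 0.0900 CPM in the authors' deposited table it was nearly unmeasured.

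The difference along the gene was widespread. Among 2203 genes with a pair of transcripts of at least 1 CPM that share no exonic base, the 3′ transcript had the higher log2 fold change in 90.2%, with a median difference of 0.18 (middle 50% from 0.08 to 0.32). Measured by the pair farthest apart, the difference was 0.90 for Wnk1 (Wnk1-208 against Wnk1-206, whose exons reach back to exon 1), 0.50 for Wnk4 and 0.21 for Stk39. These stood at the percentiles 99.8, 92.3 and 56.4 of the 2203 genes. This comparison was chosen after the Wnk1 values were seen, it is a description across genes with no test, and the interval of such a difference cannot be had without values per library.

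Fold changes of different genes also moved with transcript length. Among coding genes of at least 1 CPM transcripts under 1000 nucleotides, the range that holds Pvalb, had a median log2 fold change of 0.19, and those of 6000 or more had one of -0.05. The latter range holds Wnk1, Trpm6 and Klhl3. The trend subtracted next was fitted over all genes by length and level together, so it can differ from these medians. It was 0.07 for Trpm6, 0.09 for Klhl3 and -0.03 for Wnk1. After the length and level trend was subtracted, Calb1 had a log2 fold change of 0.37, Pvalb 0.24, Slc12a3 0.12, Slc8a1 -0.31 and Klhl3 -0.36, and the median of the 10 was -0.01. Trpm6 and Trpv5 turned from 0.06 to -0.0104 and -0.0110. The part of length and position in the gene in any single value was not tested.

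The partners of the WNK pathway were measured through a list of 22 genes, and 0 of 22 were called in the authors' edgeR test, against 0.0215% of all genes. By the authors' deposited table, 1 of the 22 had an unadjusted p under 0.05, against 5.12% of all genes. That was Sgk1, the aldosterone-induced kinase that restrains the ligase NEDD4-2, listed in the authors' deposited table at 0.69 with an adjusted p of 0.145 (interval 0.35 to 1.03). The signs were 13 positive and 9 negative, with a median of 0.02, which turned to -0.02 once the trend was subtracted. The next smallest p belonged in the authors' deposited table to Hsd11b2, the enzyme that shields the mineralocorticoid receptor from glucocorticoids (0.29, p = 0.0724), and to Wnk3 (-0.51 at 0.286 CPM, p = 0.126).

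Oxsr1 and Cul3 had values closer to 0 than Klhl3. Oxsr1, whose product OSR1 acts beside SPAK, is listed in the authors' deposited table at a log2 fold change of -0.03 (interval -0.25 to 0.18). Cul3, the ligase scaffold that KLHL3 binds, had one of -0.01 (-0.26 to 0.24) in the authors' deposited table. Both intervals are about as narrow as those of Wnk4 and Stk39.

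Partner genes of magnesium handling were not called either. None of the 15 magnesium partners was called in the authors' edgeR test, against 0.0215% of all genes, and 1 had an unadjusted p under 0.05 in the authors' deposited table, against 5.12%. This was the magnesium transporter gene Slc41a3, listed in the authors' deposited table at 2.48 CPM with a log2 fold change of 0.40 (interval 0.04 to 0.75, p = 0.0279). The list had 9 positive and 6 negative genes and a median of 0.12, which became 0.03 once the trend was subtracted. Its next smallest p were those of Cldn16, the paracellular magnesium pore of the thick limb (0.21), Pcbd1, a pterin dehydratase gene (0.24), and the potassium channel gene Kcna1 (0.53 at 0.113 CPM) in the authors' deposited table.

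Of 9 calcium partners, 0 were called in the authors' edgeR test, against 0.0215% of all genes, and 0 had an unadjusted p under 0.05, against 5.12%. The list had 5 positive and 4 negative genes and a median of 0.03. Casr, the calcium-sensing receptor gene, had the smallest p, at a log2 fold change of -0.34 (interval -0.72 to 0.03, p = 0.0750) in the authors' deposited table. S100g, the gene of calbindin-D9k, stood at 0.38 (-0.22 to 0.98) and Klk1, the tissue kallikrein of the connecting tubule, at 0.30 (-0.20 to 0.81) in the authors' deposited table. The plasma membrane calcium pump gene Atp2b1 stood at -0.08 (-0.31 to 0.15) in the authors' deposited table. After subtraction of the length and level trend, S100g had a value of 0.15 and Klk1 one of 0.12, beside 0.37 for Calb1, and the list had a median of -0.05.

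**Figure D4:**
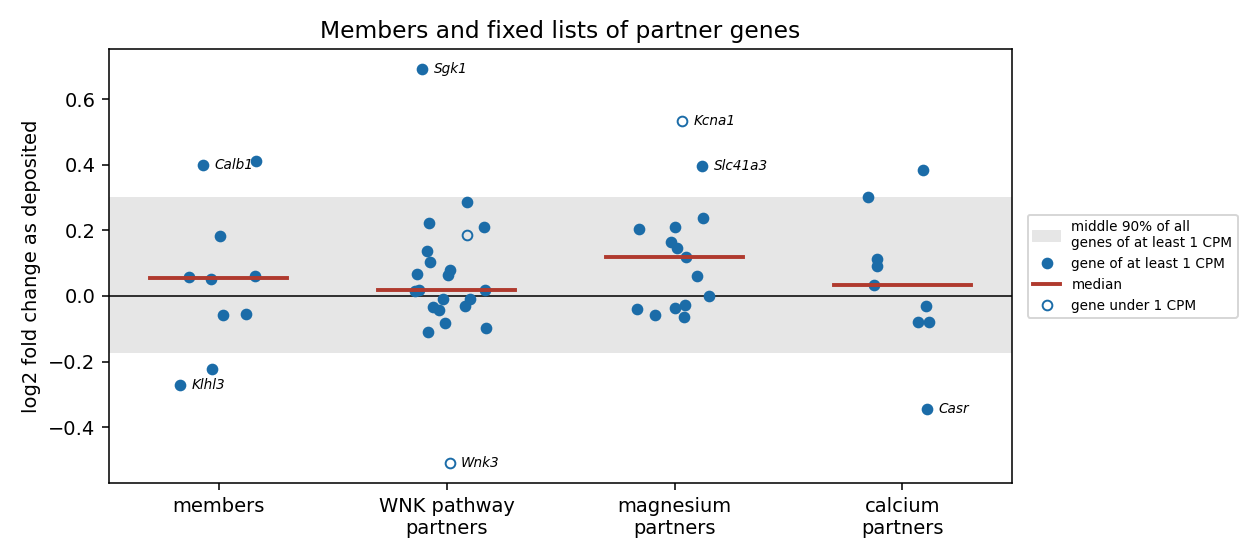
Log2 fold change (y axis, sign as deposited) of the 10 genes and of the 22 WNK, 15 magnesium and 9 calcium partners (x axis), with filled points for genes of at least 1 CPM, open points for lower ones, red lines for medians and a grey band for the middle 90% of all genes of at least 1 CPM. Medians lie between 0.02 and 0.12, and Sgk1 at 0.69 is the highest point.

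Medians of markers of neighbouring and other kidney cells ran from -0.04 to 0.20. The 7 connecting tubule genes, of which Calb1, Slc8a1 and Trpv5 are among the 10, had a median log2 fold change of 0.20 with 6 positive, and Calb1 was lowest in p. The 7 thick ascending limb genes had a median of -0.04 with 2 positive, and Cldn16 was lowest in p. The 8 principal cell genes had a median of 0.16 with 6 positive, and Hsd11b2 was lowest in p. The 7 intercalated cell genes had a median of 0.13 with 7 positive, led by the transcription factor gene Foxi1 (0.23, p = 0.149 in the authors' deposited table). The 8 proximal tubule genes had a median of 0.06, led by the glucose transporter gene Slc5a2 (0.30, p = 0.268 in the authors' deposited table). The 5 podocyte genes had a median of 0.10, led by the nephrin gene Nphs1 (0.31, p = 0.0596 in the authors' deposited table), and the 6 endothelial genes one of 0.19, led by Emcn (0.25, p = 0.108 in the authors' deposited table). Once the length and level trend was subtracted, medians ran from -0.11 for the thick ascending limb to 0.13 for endothelium. The connecting tubule then had 0.09, principal cells 0.04, and intercalated cells 0.05 with 5 positive. The connecting tubule and principal cell lists share genes, so they are not separate. None of the genes in these 7 lists had an unadjusted p under 0.05 in the authors' deposited table, against 4.09% of all genes of at least 1 CPM. A change in the share of distal tubule cells was not tested.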

How the data were processed

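RNA of whole kidneys was sequenced in 10 mice, 5 per group, and the treatment label set the groups. The submitters' processing notes name mm10, FastQC 0.11.2, STAR 2.5.3a, Subread 1.4.6 with featureCounts, and edgeR. Strand setting, filters and annotation release are not given in the sources used here. The authors' deposited log2 fold change and mean log2 CPM were used as they stand. The authors' likelihood ratio is a score on 1 degree of freedom, and the deposited p-value and adjusted p were taken from it by the authors. The approximate standard error is the absolute log2 fold change over the square root of the likelihood ratio.

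Identifiers without version were looked up in GENCODE vM21, which uses the mm10 assembly, and 83446 transcripts (98.0%) matched. The most abundant transcript by mean CPM stood for each gene. The difference needed for a call uses the likelihood ratio of the weakest called transcript. The trend was removed by loess (span 0.5) in R 4.3.3 over log2 length and level, fitted to all genes. Simulated data for genes of at least 1 CPM held a slope with length only. Removal of a level trend, or of a trend among genes of lower CPM, was therefore not tested. Other computations used Python 3.11.15, numpy 2.4.6, pandas 2.3.3 and scipy 1.17.1.

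The 10 genes and all lists were chosen with earlier results of these data known. All 10 are named. Each partner list names up to 4 genes with the smallest p, plus Sgk1, Oxsr1 and Cul3, and each marker list up to 1 gene. A gene that the rule would name is not reported here. Egf, Gm11615, Snap25 and Stmn2 were named after their values were seen. A count or library test could not be run on a finished comparison.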

Additional observations from a re-analysis of the deposited data

How the results depend on the processing

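The count of 0 called genes among the 10 was also 0 at adjusted p under 0.01, 0.1 and 0.25, with other sets of transcripts for the adjustment, other transcripts per gene, and the length and level trend removed. The count at an unadjusted p under 0.05 was 1 with the 3′-most transcript of each gene, through Wnk4-205, an alternative chosen after seeing the data. Of 50 alternative values of single genes, 47 kept their sign. The others were Trpm6 and Trpv5, -0.0104 and -0.0110 with the trend removed, and Wnk1, 0.11 with its 3′-most transcript, all uncalled. Many of those that kept their sign reuse the main transcript, so their sign was fixed in advance. The most abundant coding transcript was the main one for all 10 genes, as was every alternative transcript of Slc12a3 and Trpm6. With the trend removed 3 of the 9 calcium partners were positive, and the cause was not tested. The median of the 10 genes, 0.06, turned to -0.0107 with the trend removed and was 0.0846 with the 3′-most transcripts, and lay within 1.5 times under the other alternatives. No paired analysis was possible because the deposited table holds no values per library, and no replicate could be left out. For the same reason depth and outlying mice could not be examined.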
